A study of Homo sapiens with 8 samples.

Results

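Peaks inside the genes of small nucleolar RNAs (snoRNAs) and small Cajal body-specific RNAs (scaRNAs) were examined in an eCLIP experiment on RBFOX2. A peak belonged to the set when its midpoint lay in the RefSeq span of a gene whose symbol starts with SNORA, SNORD or SCARNA. Over 4 peak lists, 2967 of 1118316 peaks (0.265%) met this rule, with 704, 801, 761 and 701 in replicates 1 to 4. They fell in 317 of the 573 genes with such symbols, and 291 of these genes had a peak in all 4 lists.

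The study measured RNA crosslinked to RBFOX2, an RNA-binding regulator of splicing, in HEK293T, an established line derived from human embryonic kidney. All 8 samples came from that line, irradiated with 400 mJ/cm2 of 254 nm ultraviolet light, which ties proteins to the RNA they touch. The 4 immunoprecipitates (IP) were taken with an antibody to RBFOX2, and each of the 4 inputs is 2% of the lysate of the IP with the same number. The samples used here hold no cells without RBFOX2 and no control antibody, and the labels do not say whether the replicates came from separate cultures, so p-values below measure only the spread between these samples.

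SnoRNAs are short, stable, nuclear RNAs that guide chemical modification of other RNAs, and most are cut out of introns of host genes. C/D snoRNAs, named SNORD, bind fibrillarin and guide 2′-O-methylation, while H/ACA snoRNAs, named SNORA, bind dyskerin and guide pseudouridylation, both mainly of ribosomal RNA. ScaRNAs, named SCARNA, work in Cajal bodies on the small nuclear RNAs of the spliceosome and carry C/D boxes, H/ACA boxes or both. RBFOX2 is known to bind GCAUG in introns near exons.

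The letters that define the 2 snoRNA classes are shown for members whose sequence lies within a RefSeq miRNA hairpin or gene start window (GRCh38.p14), which was the case for 11 of the 317 genes. Capitals mark the ACA box, the last box of an H/ACA RNA, in the first 5 sequences, which run from inside the gene to its 3′ end or close to it. In the last one, the whole SNORD58B gene, capitals mark the core of the C box (TGATG) and the D box (CTGA).
SNORA36A, 69 to 129 of 132 nt, chrX:154768596-154768656, plus strand: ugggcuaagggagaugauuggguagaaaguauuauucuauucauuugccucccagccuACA
SNORA36B, 58 to 131 of 131 nt, chr1:220200546-220200619, minus strand: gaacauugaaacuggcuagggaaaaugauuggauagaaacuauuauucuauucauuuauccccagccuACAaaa
SNORA84, 47 to 133 of 133 nt, chr9:92292461-92292547, minus strand: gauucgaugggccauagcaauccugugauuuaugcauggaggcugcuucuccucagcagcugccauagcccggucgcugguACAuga
SCARNA3, 62 to 144 of 144 nt, chr1:175968397-175968479, minus strand: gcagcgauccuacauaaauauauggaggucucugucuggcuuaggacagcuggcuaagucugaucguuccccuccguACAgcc
SCARNA16, 111 to 187 of 187 nt, chr17:77089417-77089493, plus strand: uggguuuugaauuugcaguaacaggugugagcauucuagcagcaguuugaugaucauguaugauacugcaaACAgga
SNORD58B, 1 to 66 of 66 nt, chr18:49491664-49491729, minus strand: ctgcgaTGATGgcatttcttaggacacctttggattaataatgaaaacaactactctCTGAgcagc
All 5 RNAs with an ACA box shown were below 0 in all 4 lists, as given in the passages on their classes. SNORD58B lies in RPL17, which encodes a ribosomal protein, and its values were -0.33, 0.53, 1.28 and 0.63, on both sides of 0. GCAUG, read on the RNA strand, occurred in 1 of the 11 sequences, that of SNORA84, and in 113 of 1562 RefSeq miRNA hairpins (7.23%). A match describes letters only.

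Each deposited peak carries a log2 fold of IP over input and a −log10 p. The gene level used below is the mean log2 fold of the peaks of a gene in 1 list, weighted by peak length. A value of 0 means that a gene took the same share of IP and input after the authors' scaling, which is not given in the sources used here. The −log10 p was 0 for every peak with a log2 fold below 0, so it does not register depletion. Median peak length ran from 26.5 nt in scaRNAs to 32.6 nt in H/ACA genes, against 48.8 nt for all other peaks, and most of these genes were split into several peaks that are not independent.

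H/ACA snoRNA genes were far lower in the IP than in the input, and the other classes were not. Mean gene level over H/ACA genes was -2.02, -1.77, -2.22 and -2.35 in replicates 1 to 4 (-2.09 ± 0.25, SD, n = 4). Over C/D genes it was 0.05, 0.31, 0.49 and 0.25 (0.27 ± 0.18, SD, n = 4). Over scaRNA genes it was 0.04, 0.17, -0.33 and -0.17 (-0.07 ± 0.22, SD, n = 4). The H/ACA values did not overlap with those of either other class, while C/D and scaRNA values overlapped.

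**Figure D1:**
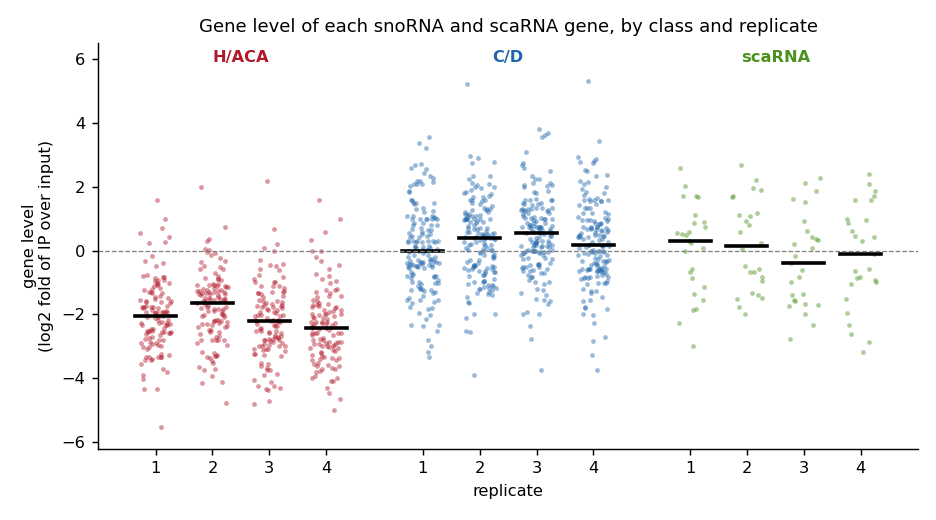
Gene level (log2 fold of IP over input, vertical axis) of each snoRNA or scaRNA gene with a peak, for each class and replicate (horizontal axis). Each point is a gene and the black bar is the median; H/ACA medians lay between -2.42 and -1.63, C/D medians between 0.00 and 0.55 and scaRNA medians between -0.40 and 0.30.

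The difference of H/ACA minus C/D genes was -2.36 ± 0.34 (SD, n = 4) on the log2 scale, and that of H/ACA minus scaRNA genes -2.02 ± 0.13 (SD, n = 4). Both differences had the same sign in 4 of 4 lists. The C/D genes were 0.35 ± 0.35 (SD, n = 4) above the scaRNA genes, a difference as large as its own SD, and with a plain median over peaks it turned to -0.44. An exact two-sided sign-flip permutation test over the 4 replicates gave p = 0.13 for each of these 3 differences, also after Benjamini-Hochberg adjustment over them, and 0.13 is the smallest p that 4 replicates allow.

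The low H/ACA level was a property of most genes of the class. Of the 113 H/ACA genes with a peak in all 4 lists, 105 had a gene level below 0 in every list and 2 above 0 in every list. Over all 15628 RefSeq genes with a peak in all lists, 10.8% were below 0 in all 4 and 31.2% above. C/D genes went both ways, with 36 of 152 below and 59 above in all 4 lists, and scaRNA genes did so too, with 11 of 26 below and 12 above. Among the 50 lowest of the 15628 genes by mean gene level, 33 carried a SNORA symbol, and among the 100 lowest 60 did, where some spans of other genes share these same peaks.

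Genes kept their order between replicates. The SD of a gene between replicates had a median of 0.44 in H/ACA, 0.47 in C/D and 0.33 in scaRNA genes, against an SD between gene means of 1.09, 1.19 and 1.40. Spearman's rho between pairs of lists across genes ran from 0.711 to 0.830 in 113 H/ACA genes, from 0.733 to 0.823 in 152 C/D genes and from 0.867 to 0.961 in 26 scaRNA genes. These describe genes of the same libraries, which are not independent replicates.

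Counted per peak rather than per gene, scaRNAs stood above C/D snoRNAs. A −log10 p of at least 3 was reached by 0 of 1244 H/ACA peaks, by 13.1% ± 1.02 (SD, n = 4) of C/D peaks and by 37.4% ± 1.79 (SD, n = 4) of scaRNA peaks, against 1.11% of all peaks. The C/D share minus the scaRNA share was -24.4 ± 2.08 percentage points (SD, n = 4), below 0 in 4 of 4 lists (exact sign-flip permutation test, two-sided, p = 0.13, the same after adjustment over 3 differences). A p-value grows with the number of reads as well as with the fold, and read counts per peak were not used here. A divided gene also counts once per piece, and SCARNA2 and SCARNA10 held 57 and 42 of the 494 scaRNA peaks. At the other end, 84.4% ± 4.44 (SD, n = 4) of H/ACA peaks had a log2 fold of at most -1, against 14.2% of C/D peaks, 13.6% of scaRNA peaks and 13.7% of all peaks. In single lists this last share was 20.3%, 6.98%, 7.38% and 20.7%. Recurring values lay just beyond -1 in replicates 1 and 4 (-1.0009 and -1.0005) and just short of it in 2 and 3 (-0.9986 and -0.9992). A log2 fold of at least 1 was held by 0.885% of H/ACA, 27.8% of C/D and 43.9% of scaRNA peaks, against 20.9% of all peaks. In single lists the share of all peaks was 15.5%, 27.5%, 25.9% and 14.3%. How far values so close to a limit set these shares was not tested.

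Strongly enriched peaks, those with a log2 fold and a −log10 p of at least 3, made up 0.818% of all peaks and 1.38% ± 0.491 (SD, n = 4) of the peaks in these genes. The difference from the other peaks of the same list was 0.562 ± 0.490 percentage points (SD, n = 4), above 0 in 4 of 4 lists (exact sign-flip permutation test, two-sided, p = 0.13, adjusted p = 0.167 over 4 comparisons). H/ACA genes held 0 enriched peaks. C/D genes held 6, 4, 13 and 6 in replicates 1 to 4, or 2.34% ± 1.15 (SD, n = 4) of their peaks. ScaRNA genes held 5, 5, 2 and 0, or 2.36% ± 1.89 (SD, n = 4), and their difference from other peaks had adjusted p = 0.25 in the same exact test. These peaks lay in 12 C/D and 5 scaRNA genes, and 5 genes held one in at least 2 lists, namely SNORD1A, SNORD77, SNORD143, SCARNA9 and SCARNA10. The matching shares of all RefSeq genes are not given here, so these counts of genes cannot be read as many or few. Of the 41 enriched peaks, 20 were pieces of SNORD1A, SCARNA9 and SNORD45C, so the share of peaks rests to a large degree on a few divided genes.

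SNORD1A, a C/D snoRNA within the noncoding host gene SNHG16 (chr17:76561633-76561706 on hg38, 74 nt, peaks on the plus strand), was the highest of all snoRNA and scaRNA genes. Its gene level was 3.37, 5.20, 3.56 and 5.30 (4.36 ± 1.03, SD, n = 4), and it was the 1 gene of 291 with an enriched peak in all 4 lists, against 2.59% of all RefSeq genes with a peak in all lists. The rest of SNHG16 was at -0.28, -1.88, -1.43 and -1.38, below its snoRNA in every list. The other members of the family in the same host were lower, since SNORD1B was at 1.07, 0.98, 0.55 and 0.63. SNORD1C was at 0.47, 0.39, 0.15 and 0.74, so SNORD1A was above both in every list.

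SNORD45C, in RABGGTB, which encodes an enzyme subunit that attaches lipids to Rab proteins, was next, at 2.7, 2.75, 3.67 and 2.52 (2.91 ± 0.51, SD, n = 4). Its neighbours in that host were lower, SNORD45A at a mean of 0.90 and SNORD45B at 1.55. SNORD36C in RPL7A, a ribosomal protein gene, was at 2.17, 1.94, 2.49 and 1.93, while SNORD36A of the same host was at -0.81, -0.06, -0.52 and 0.70. C/D genes of the same family in 1 host could thus differ by more than their replicate spread, since SNORD45C did not overlap with either neighbour nor SNORD36C with SNORD36A.

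The rest of the 10 highest genes had means from 2.21 to 2.76. SNORD51, in the elongation factor gene EEF1B2, was at 2.54, 1.49, 3.63 and 2.48. SNORD138 in COX7C was at 2.08, 2.91, 1.58 and 3.43, and SNORD143 in THAP9-AS1 at 2.33, 2.96, 1.33 and 2.34. SNORD98 in CCAR1 was at 2.09, 2.00, 2.68 and 2.08. SNORD77 and SNORD75 belong to the GAS5 group described with their host, and SCARNA9 is described with the scaRNAs.

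At the low end, 9 of the 10 lowest genes were H/ACA. SNORA64, in RPS2, a ribosomal protein gene (chr16:1962973-1963106 on hg38, peaks on the minus strand), was the lowest at -4.33, -4.12, -4.80 and -4.98 (-4.56 ± 0.40, SD, n = 4). SNORA36A, whose ACA box is shown above, was at -5.53, -4.13, -4.25 and -3.70. Its host DKC1 encodes dyskerin, the pseudouridine synthase of H/ACA particles, and the rest of DKC1 was above 0, at 0.80, 0.78, 1.32 and 0.90. SNORA22C was at -2.17 in replicate 1 and at -4.75, -4.70 and -4.64 in the others, from 1 peak per list. SNORA3A, SNORA50C, SNORA65, SNORA23, SNORA54 and SNORA3B had means between -3.98 and -3.63 and were below 0 in all lists. SNORD133, in LARP4, was the single C/D gene among them, at -3.32, -3.89, -3.73 and -3.73 (-3.67 ± 0.24, SD, n = 4).

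Other C/D genes lay well below 0 too. SNORD17 in SNX5 was at -2.37, -2.56, -2.78 and -2.70, and SNORD31 in SNHG1 at -2.51, -2.11, -2.37 and -3.26. U3 (SNORD3A), which is needed for cleavage of the ribosomal RNA precursor, was at -0.93, -1.21, -1.23 and -1.26. U8 (SNORD118), which acts in maturation of the large-subunit RNAs, was at 0.43, 0.18, 0.12 and 0.18. SNORD13, which guides acetylation rather than methylation, was at -1.19, -1.18, -0.58 and -1.55. U3 and SNORD13 were below 0 and U8 above 0 in every list. U3 exists in near-identical copies, and how reads were shared among them is not given in the sources used here, so its value is uncertain.

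Few H/ACA genes were above 0. SNORA92 in TMEM184B was at 1.58, 0.74, 2.17 and 1.58, and SNORA94 in UQCRC1 at 0.41, 2.00, 0.69 and 1.00. These were the 2 H/ACA genes above 0 in all 4 lists. SNORA92 had 1 peak per list, SNORA94 5 peaks in all, and the rest of TMEM184B was itself above 0, at 1.56, 1.35, 1.40 and 1.50. The rest of UQCRC1 was above 0 too, at a mean of 1.40, against 1.03 for SNORA94. SNORA41 in EEF1B2 was near 0, at 0.70, 0.36, -0.57 and -0.31. The gene with most peaks in its class, SNORA81 in EIF4A2, had 42 peaks and was at -2.46, -2.30, -2.52 and -3.21. SNORA36B was at -1.88, -0.91, -1.32 and -2.91, and SNORA84 at -1.96, -2.17, -2.16 and -2.23.

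A limma fit over all 49493 regions of merged peaks with a peak in all 4 lists set these genes beside the other regions. It called 108 of 133 H/ACA regions lower than 0 and 1 higher, at an adjusted p of at most 0.05, where 1.81% of all regions were lower. The higher region was that of SNORA92 (1.52 on the log2 scale, limma adjusted p = 0.0271). In C/D genes 13 of 156 regions were lower and 37 higher (23.7%). In scaRNA genes 5 of 37 were lower and 18 higher, against 21.1% higher among all regions. The median of the region means was itself above 0 over all regions, at 0.50. It was 0.30 over C/D, 1.00 over scaRNA and -2.00 over H/ACA regions. A region took the peak of highest −log10 p in each list, with ties going to the higher log2 fold. Where every −log10 p was 0, it thus took the highest fold, which raises region values. Over all single peaks, pooled over the lists, the median log2 fold was 0.0008. With a length-weighted value per region, 9573 of all regions were called higher and 900 lower. Of all 895 lower regions, 126 (14.1%) lay in snoRNA or scaRNA genes and 108 (12.1%) in H/ACA genes. These calls depend on the number of replicates: without replicate 1 or without replicate 4 the fit called 0 regions of any kind, with smallest adjusted p of 0.0507 and 0.0506. Of 353 and 361 regions of these genes, 151 and 158 were then lower and 83 and 80 higher at an unadjusted p under 0.05. The matching unadjusted share over all regions is not given here. Without replicate 2 it called 38 H/ACA regions lower, and without replicate 3 also 38, with 0 H/ACA regions higher in both. Over all 62378 and 62794 regions of these 2 fits, 81 and 150 were called lower and 1271 and 2470 higher.

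The named regions showed the range. The SNORD1A region was called higher at a mean of 4.49 (limma adjusted p = 0.0060), the SNORD45C region at 2.98 (0.0051) and the SCARNA9 region at 2.83 (0.0055). The SNORA64 region was called lower at -4.30 (0.0041), as was that of SNORA36A at -4.35 (0.0047). A region of SNORA53, in SLC25A3, was called lower at -3.87 (0.0088) although the whole gene level was -2.58. For SNORA74A, in SNHG4, a called region was at -3.71 (0.0047) and the gene level at -1.78, so parts of these genes differed. With the single peak of highest −log10 p, SNORA74A turned to 0.49.

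Because most snoRNAs are processed from introns, each gene was set against the remaining peaks of its host on the same strand. H/ACA genes minus their hosts gave -2.39 ± 0.21 (SD, n = 4 lists), and 113 of 119 genes lay below on average. Their hosts were at a mean of 0.29 ± 0.11 (SD, n = 4). C/D genes differed from their hosts by 0.09 ± 0.22 (SD, n = 4), with 75 genes below and 84 above. ScaRNA genes minus theirs gave -0.52 ± 0.15 (SD, n = 4), with 19 of 25 genes below. The exact two-sided sign-flip permutation test gave p = 0.13 for H/ACA and scaRNA genes (adjusted p = 0.167 over 4 comparisons) and p = 0.5 for C/D genes.

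In H/ACA genes the fold was low along the gene and just beside it, and higher on average further out, where few genes had peaks. Along the 10 parts of the gene the H/ACA mean lay between -2.35 and -1.94. It was still -1.92 ± 0.29 (SD, n = 4) in the 20 nt before the start and -2.02 ± 0.41 in the 20 nt after the end. From 20 to 40 nt before the start it was 0.26 ± 0.44, and from 20 to 40 nt after the end 0.62 ± 1.03, from at most 8 genes per list in each bin. The bins next to the gene held at least 27 genes per list, so these bins compare different sets of genes. In replicate 4 the 2 outer bins were below 0, at -0.25 and -0.83, the latter from 2 genes. C/D genes stayed between 0.27 and 0.40 along the gene, with 0.36 in the 20 nt on either side.

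**Figure D2:**
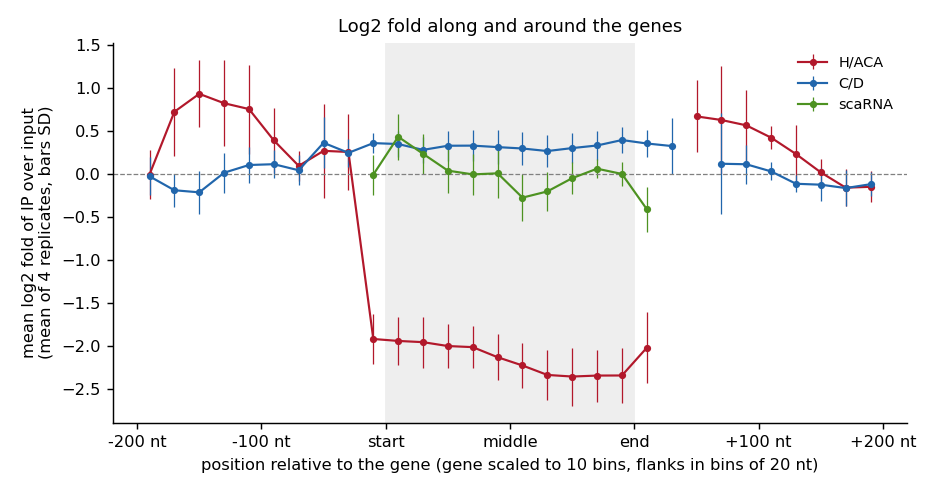
Mean log2 fold of IP over input (vertical axis, mean of 4 replicates, bars are SD) along the gene scaled to 10 bins (shaded) and in bins of 20 nt up to 200 nt on either side (horizontal axis), for H/ACA, C/D and scaRNA genes. Bins with fewer than 3 genes in any list are not drawn; H/ACA genes lay between -2.35 and -1.94 inside the gene and C/D genes between 0.27 and 0.40.

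The contrast between classes was also present inside single host genes, a comparison added after the data were seen. In 11 hosts that held both classes, with 22 H/ACA and 17 C/D genes, the H/ACA mean was below the C/D mean in all 11, and in every list in 9. The mean difference was -2.43 ± 0.52 (SD, n = 4 lists). It was largest in NOP56, which encodes a core C/D particle protein, at -4.26, followed by EIF4A2, a translation initiation factor gene, at -4.04. In CCNB1IP1 and RPL5 it was close to 0, at -0.08 and -0.05, and changed sign between lists.

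NOP56 showed this side by side. Its H/ACA gene SNORA51 was at -3.72, -3.16, -3.60 and -3.66. The C/D genes SNORD56 at 0.80, 1.55, 1.28 and 0.86 and SNORD57 at 0.68, 1.80, 2.05 and 1.41 were above 0 in all lists. SNORD110 of the same host was at -1.25, -0.48, -0.52 and -0.80, below 0 but above SNORA51 in every list. In EEF1B2 the pair was SNORD51 at a mean of 2.53 and SNORA41 at 0.04.

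GAS5, a noncoding host known for its many C/D snoRNAs, held 10 C/D genes with values on both sides. SNORD74 was at 2.15, 1.69, 1.79 and 1.82, and SNORD75 at 2.07, 1.84, 2.25 and 2.87. SNORD77 was at 2.26, 2.77, 3.07 and 2.94, and SNORD78 at 1.50, 1.67, 2.10 and 2.37. These 4 genes were above 0 in every list, and their lowest value exceeded the highest of the remaining 6 genes. SNORD81 was the lowest, at -2.13, -2.50, -1.55 and -2.83. SNORD76 was at -1.62, -1.64, -1.40 and -0.73, and SNORD80 at -1.64, -1.38, -0.72 and -1.06. SNORD79 had a mean of -0.68, SNORD47 of -0.51 and SNORD44 of -0.19. The rest of GAS5 had peaks in 3 lists, at 0.18, 1.60 and -0.34 in replicates 1, 3 and 4, so the host values spread over parts of both sets.

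**Figure D3:**
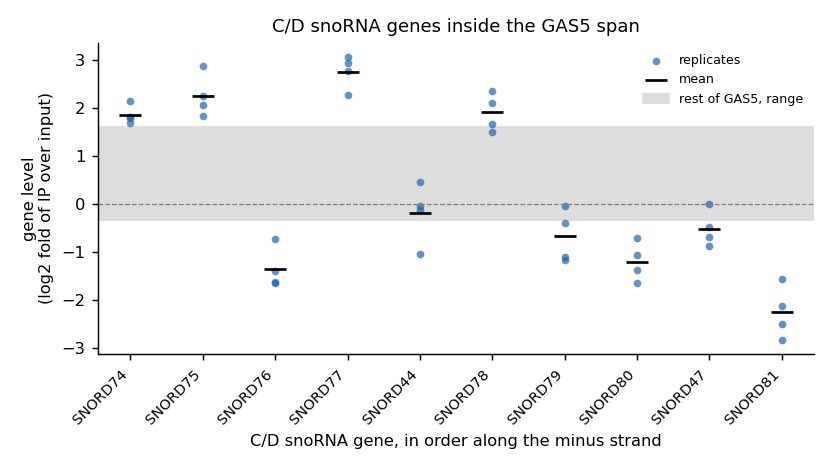
Gene level (log2 fold of IP over input, vertical axis) of the 10 C/D genes within the GAS5 span, in their order along the minus strand (horizontal axis). Points are replicates, black marks their mean, and the grey band is the range of the rest of GAS5 in the 3 lists with peaks there; SNORD74, SNORD75, SNORD77 and SNORD78 lay between 1.50 and 3.07 and the other genes between -2.83 and 0.47.

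The mean level of scaRNA genes differed with the boxes they carry, although single genes overlapped between types. Box types were assigned to 23 of them from general knowledge after the values had been seen, so these differences are a description without a test. The 5 C/D scaRNAs had a mean gene level of 1.71, 1.93, 1.69 and 1.67 (1.75 ± 0.12, SD, n = 4). The 4 scaRNAs with both box types were at 0.82, 0.84, 0.39 and 0.81 (0.71 ± 0.22, SD, n = 4). The 14 H/ACA scaRNAs were at -0.86, -0.63, -1.22 and -1.29 (-1.0 ± 0.31, SD, n = 4). All 9 genes with C/D boxes were above 0 in every list, and 9 of the 14 H/ACA genes below 0 in every list. Length moved with box type, since C/D scaRNAs were 330 to 421 nt, mixed ones 266 to 330 nt and H/ACA ones 125 to 275 nt, and its part in the order was not tested.

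**Figure D4:**
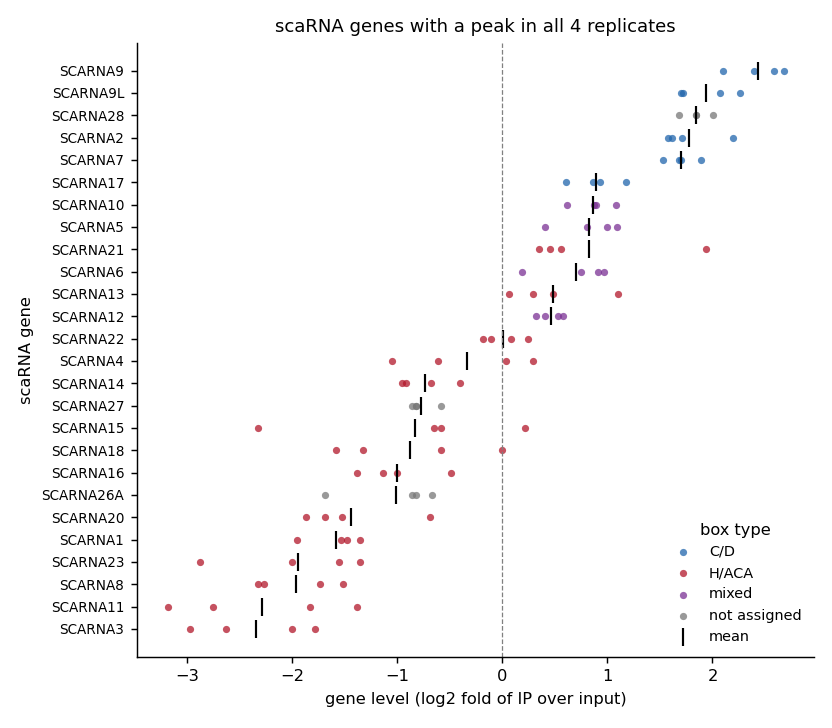
Gene level (log2 fold of IP over input, horizontal axis) of the 26 scaRNA genes with a peak in all 4 lists, ordered by their mean (vertical axis). Points are the 4 replicates, coloured by box type, and black bars are means, from -2.34 for SCARNA3 to 2.44 for SCARNA9; all C/D and mixed genes lay above 0 in every replicate.

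SCARNA9, a C/D scaRNA in CEP295 (chr11:93721514-93721866 on hg38, 353 nt), was the highest at 2.58, 2.68, 2.10 and 2.39. SCARNA9L, its relative on the X chromosome in EIF1AX, was at 1.72, 1.70, 2.26 and 2.07, and how reads of related copies were assigned is not given in the sources used here. SCARNA2, with 57 peaks the most divided gene, was at 1.71, 2.20, 1.61 and 1.58 and reached the highest −log10 p of these genes, 65.1. SCARNA7 in KPNA4 was at 1.68, 1.89, 1.53 and 1.70, and SCARNA17 at 0.87, 1.18, 0.93 and 0.60. None of the 5 C/D scaRNAs had a value below 0.60.

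The H/ACA scaRNAs spread over a wider range. SCARNA3 in COP1, whose ACA box is shown above, was the lowest, at -2.97, -1.78, -2.0 and -2.62. SCARNA11 was at -1.83, -1.38, -2.76 and -3.18, SCARNA8 at a mean of -1.96, SCARNA23 of -1.94, SCARNA1 of -1.58 and SCARNA20 of -1.44. SCARNA16, shown above, was at -1.13, -0.48, -1.39 and -1.0, and SCARNA14 at a mean of -0.74. With the single peak of highest −log10 p in place of all peaks, SCARNA16 turned to 0.32. These 8 genes, with means from -2.34 to -0.74, were below 0 in every list, as was SCARNA18 with a mean of -0.87 and a value just under 0 in replicate 1. SCARNA15 and SCARNA4 had means of -0.83 and -0.33, and SCARNA22 was at 0.08, 0.24, -0.18 and -0.11. SCARNA13 and SCARNA21 were above 0 in every list, SCARNA13 at 0.48, 1.1, 0.07 and 0.30 and SCARNA21 at 0.56, 1.94, 0.35 and 0.45. Both had means above that of the mixed SCARNA12. SCARNA13 is the longest of this type, and SCARNA21 is not, at 138 nt.

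The 3 scaRNAs without an assigned box type were also measured in all lists. SCARNA28 in TRRAP was at 2.00, 1.68, 1.85 and 1.85, in the range of the C/D scaRNAs. SCARNA27 in EEF1E1 was at -0.59, -0.82, -0.82 and -0.86, and SCARNA26A in YY1AP1 at -0.86, -0.67, -1.69 and -0.82.

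The 4 mixed scaRNAs were not uniform along their length. SCARNA10, in NCAPD2, was divided into 5 equal parts of 66 nt, and the mean log2 fold in them was 1.66 ± 0.69, 0.55 ± 0.24, 0.16 ± 0.32, 0.48 ± 0.34 and 1.80 ± 0.49 (SD, n = 4). Both ends were above the middle in all 4 lists. SCARNA5 in ATG16L1 had 1.82, 0.78, 0.15, 0.21 and 1.18, also high at both ends on average, although in replicate 1 its last part, at 0.48, was below the middle, at 0.62. SCARNA6, in the same host, had 1.31, 1.09, 0.61, 0.29 and 0.22, and SCARNA12 had 0.92, 0.84, 0.33, 0.06 and 0.26, both with the highest mean at the start. The C/D scaRNA SCARNA9 lay between 2.22 and 2.82 in all 5 parts, and the H/ACA scaRNA SCARNA13 between 0.33 and 0.67. SCARNA2, also a C/D scaRNA, had no value in its first part and lay between 1.55 and 2.15 in the rest. The C/D scaRNA SCARNA17 had merged-peak regions at means of 1.00, 1.64 and 0.57 along the gene, the first above the last in every list. Uneven values were thus not limited to mixed scaRNAs, and a difference between box types in this respect was not tested. Where the boxes lie in these genes was not read from sequence here.

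**Figure D5:**
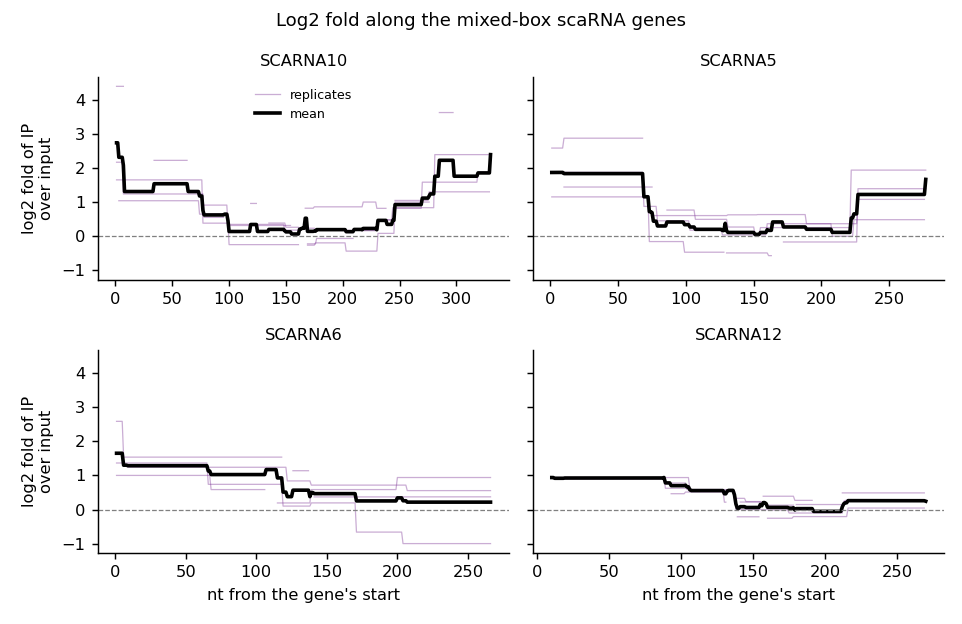
Log2 fold of IP over input (vertical axis) at each nucleotide from the gene's start (horizontal axis) in the 4 scaRNA genes with both box types. Thin lines are replicates and the thick line is their mean; the means of SCARNA10 and SCARNA5 were high at both ends, with 1.66 and 1.80 in the outermost of 5 equal parts of SCARNA10 against 0.16 in the middle one.

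Gene length differs between classes, with medians of 134 nt for H/ACA and 78 nt for C/D genes that have a peak. Among genes of 100 to 150 nt, a range chosen after the data were seen, 112 H/ACA genes had a mean of -2.08, 25 C/D genes 0.08 and 15 scaRNA genes -0.82. The C/D genes were lower here than over all lengths, with a median of -0.23 and 14 of 25 below 0, while 3 of the 112 H/ACA genes were above 0. The part of length in the class differences was not tested. Within classes, Spearman's rho of gene level with length was 0.065 in H/ACA, -0.319 in C/D and 0.685 in scaRNA genes, where genes share libraries.

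Other small noncoding RNAs gave a scale for these values. The signal recognition particle RNA RN7SL2 was at -9.10, -10.62, -10.84 and -10.87. RPPH1, the RNA of RNase P, had a mean of -4.90 ± 0.26 (SD, n = 4), and RMRP, the RNA of RNase MRP, of -4.42 ± 0.42 (SD, n = 4). These were the 3 with a peak of 5 such RNAs looked at. H/ACA genes were 4.47 ± 0.28 (SD, n = 4) above the mean of these 3, which RN7SL2, with 1 peak per list, pulled down. H/ACA minus miRNA precursor genes, which were at 0.31 ± 0.12 and partly share peaks with them, gave -2.40 ± 0.32 (SD, n = 4). Each difference had the same sign in 4 of 4 lists (exact sign-flip permutation test, two-sided, p = 0.13, adjusted p = 0.15 over 6 comparisons). The telomerase RNA TERC, which has H/ACA boxes but no SNORA symbol, was chosen after its values were seen. It was at 0.38, 0.19, -0.04 and -0.32, with a mean of 0.05. That is above the H/ACA class mean in every list, but within the range of single H/ACA gene means, -4.56 to 1.52. Of 126 H/ACA genes with a peak, 6 had a mean above 0. The abundance of these RNAs in the input was not used here, and its part in the differences was not tested.

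Of the 573 genes, 256 had no peak. Of 362 C/D genes 199 had none, and among these were all 118 genes of SNORD113 to SNORD116, the imprinted clusters known for expression in brain. Of 182 H/ACA genes 56 had none, and of 29 scaRNA genes 1. Without a peak a gene has no value here, so nothing follows about its binding.

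The genes that encode the proteins of these particles were looked at as their own list of 20, with levels taken over both strands of each span. NOP56 was the 1 gene with an enriched peak in all 4 lists, against 2.59% of all genes, and 18 of the 20 had none in any list. For the count of 18 no matching share of all genes is given here. Over these spans mean gene levels ran from -0.87 for NHP2, an H/ACA core protein gene, to 0.62 for WRAP53, a Cajal body factor gene. The median was -0.16. Measured as hosts, on 1 strand and outside snoRNA and scaRNA genes, NOP56 and DKC1 were at means of 2.00 and 0.95. In the span levels they were at 0.59 and 0.27, so the order of these genes depends on the peaks counted. FBL, the fibrillarin gene, was at 0.22, 0.48, -1.18 and -0.22.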

How the data were processed

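The authors deposited 1 peak list per IP, each set against its input, with a −log10 p-value and a log2 fold for every peak. The lists have no header, and these units were read from the values. Per the submitters' processing notes, UMI-tools 1.1.1, cutadapt 3.2 and STAR 2.7.7a were used on hg38 and GRCh38.p13. The peak caller, the p-value test and the scaling are not given in the sources used here. Replicate lists were therefore compared as deposited. The 4 lists held 267691, 281701, 288305 and 280619 peaks. As no read totals entered the work, sequencing depth is unknown and folds carry no counting interval.

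Genes came from the RefSeq table of GRCh38.p14, which has no strand, so a gene's strand is that of its peaks. Peaks on both strands counted, which affected 2 genes. Midpoints decided membership. A further 660 genes annotated as snoRNAs carry other symbols and are not covered. The host was the shortest RefSeq span holding the gene with peaks on its strand. Class differences were tested by an exact sign-flip permutation over 4 replicates. Regions were peaks merged on a strand with at least 1 nt in common, valued by the peak of highest −log10 p, with ties going to the higher log2 fold. They were fitted in limma 3.58.1 (R 4.3.3) with an intercept and Benjamini-Hochberg adjustment over all 49493 regions. Python 3.11.15, pandas 2.3.3 and scipy 1.17.1 did the rest.

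The members and lists were chosen with earlier results of these data known. Named genes were those with an enriched peak in at least 2 lists, the 10 highest and 10 lowest, the 3 with most peaks, U3, U8, SNORD13, the scaRNAs present in all lists and up to 10 limma regions each way. A gene that this rule names is not reported here. SNORA92, SNORA94, SNORA41, neighbours in the same host or family, SNORD17, SNORD31 and the genes with a printed sequence or within GAS5 were named after their values were seen.

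The limma step was tested on simulated data of 49493 regions for the comparison of member regions with 0. In a first simulation 200 shifted regions were the only ones, the spread of each region was its sample SD, and 0 of 200 were called. A second simulation, made after the first, kept the means of the called regions and used limma's moderated spread. It recovered 20% of shifted regions at a log2 fold of 1 and 100% at 2, 3 and 4, and 4.35% of calls were false. As the called regions entered it as true shifts, it cannot say how many of the real calls were false. The simulations differed in both the other shifts and the spread, and which of them changed the recovery was not tested.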

Additional observations from a re-analysis of the deposited data

Results flagged for a closer look

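In 7 of 91 sets of 4 replicate values, 1 replicate stood far from the other 3 by Dixon's test, where chance flags about 1 in 20 groups and would give 4.55. SNORA22C was at -2.17 in replicate 1 and between -4.75 and -4.64 in the others. SCARNA21 was at 1.94 in replicate 2 and between 0.35 and 0.56 in the others. SCARNA27 was at -0.59 in replicate 1, and the others lay between -0.86 and -0.82. U3 (SNORD3A) was at -0.93 in replicate 1, and the others lay between -1.26 and -1.21. SNORD98 was at 2.68 in replicate 3, above the range of 2.00 to 2.09. RN7SL2 was at -9.10 in replicate 1, above the range of -10.87 to -10.62. The share of H/ACA peaks with a −log10 p of at least 3, minus that of C/D peaks, was -14.6 percentage points in replicate 3 and between -12.7 and -12.4 in the others. None of these values changed the direction of its gene or class.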

How the results depend on the processing

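The H/ACA minus C/D and H/ACA minus scaRNA differences kept their sign under every alternative run, from -2.46 to -2.25 and from -2.06 to -1.96 when 1 replicate was left out. The excess of enriched peaks over other peaks ran from 0.354 to 0.722 percentage points when 1 replicate was left out. The C/D minus scaRNA difference turned to -0.44 with the median over peaks. The scaRNA level was 0.28 with the peak of highest −log10 p, 0.66 with the median over peaks and -0.97 over genes of 100 to 150 nt, where the C/D level was 0.030. These last values average the genes within each list, whereas the -0.82 and 0.08 of the report average over gene means, so that a gene found in 1 list counts in full. With the peak of highest −log10 p, SCARNA16 turned to 0.32 and SNORA74A to 0.49, and in these 2 genes, which hold 27 and 21 peaks, 1 peak replaces a mean over several. As −log10 p is 0 below a log2 fold of 0 and ties go to the higher fold, this setting favours high folds by its rule. Tested against a log2 fold of 1, limma called 48 H/ACA regions lower and 0 higher, 3 C/D regions lower and 7 higher, and 0 scaRNA regions lower and 2 higher. Over all 49493 regions it called 93 lower and 2770 higher. Leaving out 1 replicate gave 0 to 38 H/ACA regions lower and 0 higher, 0 to 6 C/D regions lower and 0 to 8 higher, and 0 scaRNA regions lower and 0 to 6 higher. Over all regions these fits called 0 to 150 lower and 0 to 2470 higher. The smallest adjusted p then ran from 0.0484 to 0.0507. Of the 342 to 361 regions of these genes, 71 to 83 were higher and 150 to 158 lower at an unadjusted p under 0.05, with no matching share over all regions given here. At a −log10 p of at least 5, NOP56 no longer had an enriched peak in all lists, so 0 of the 20 protein genes did. Of 638 recomputed values of named genes, 619 kept their value within the spread between replicates, 17 moved and 2 reversed. Leaving out 1 of 4 replicates cannot shift a mean by its full SD, and several filters left named genes as they were. The count of 619 was thus largely fixed in advance and says little about robustness. Beyond the choice of peak described for the setting of highest −log10 p, the cause of the changes was not tested. The length range, a limit of 3.1 on −log10 p in replicates 2 and 3, and leaving out the GAS5 genes were chosen after seeing the data. Matching motifs in the gene start windows of members was not run, since the table used here holds none for them. No paired analysis was possible because every fold contains the input of its own number, and no separate input values were used here. Exact tests over 4 replicates cannot pass 0.05, and over 3 replicates their smallest p is 0.25. Without read counts, a gene with 1 peak per list cannot be weighed by its depth.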
